A study of Mus musculus with 4 samples.

Results

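The expression of 10 genes of the VEGF and angiopoietin systems was examined in injured kidneys of mice with and without tubular Apela, the gene of the peptide ELA. The genes were taken by name from the 54078 features of the deposited table, and all 10 were found and passed the filter on low values, a mean FPKM of at least 0.5. They were the ligands Vegfa, Vegfc, Angpt1 and Angpt2, the receptors Kdr, Flt1, Flt4, Tek and Tie1, and the coreceptor Nrp1. RNA came from whole kidneys at day 3 after both kidneys were clamped for 30 min and reperfused, a model of acute kidney injury (AKI). The WT group was male littermates that carry loxP-flanked Apela (flox/flox) without Cre, and the ApelaKsp KO group was male mice with the same floxed alleles and Cre under the Ksp-cadherin promoter, which acts in renal tubular epithelial cells. Both groups were adult and both had I/R injury, and no library of non-injured kidney was analysed here. The sample labels give the strain as C57BL/6 x 129S4/SvJae, while the methods of the study give C57BL/6. Each group had 2 libraries, each a pool of RNA from 3 mice, so n = 2 counts pools and p-values measure the spread between pools.

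VEGF ligands act on tyrosine kinase receptors of endothelial cells. KDR (VEGFR2) is the main signalling receptor for VEGFA, FLT1 (VEGFR1) binds VEGFA tightly with weak kinase activity and also exists as a soluble form that captures the ligand, and FLT4 (VEGFR3) binds VEGFC and is known for its role in lymphatic vessels. The angiopoietins act on TEK (TIE2), where ANGPT1 is an activating ligand that stabilizes vessels and ANGPT2 is a context-dependent antagonist, and TIE1 is a related receptor without a high-affinity angiopoietin ligand of its own that modulates TEK. In the kidney VEGFA is made by podocytes and tubular cells and maintains glomerular and peritubular capillaries. The study asked which pathways differ in the injured kidneys of KO mice, and the renal microvasculature was one of its subjects.

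Total reads on genes were 16045724 to 16927742 per library. Apela, the targeted gene, had an FPKM (fragments scaled by gene length and library size) of 5.27 and 4.57 in WT pools against 0.536 and 0.245 in KO pools. Its log2 fold change of -2.62 ranked 2 of 15414 genes by p, but with an adjusted p of 0.466 (limma, Benjamini-Hochberg) it did not pass the threshold of 0.05 used below, so a gene that misses this threshold is not shown to be equal between the groups. Kidney markers were abundant, with a summed FPKM of 1174 to 1809 for 8 proximal tubule markers and of 1365 to 1902 for 6 markers of the thick ascending limb, distal tubule and collecting duct. The series text speaks of adipose tissue, but 6 adipose markers summed to 11.6 and 13.3 in WT pools against 22.9 and 14.9 in KO pools, most of it from Fabp4, which endothelial cells also make. Ucp1 was listed at 0 in every pool and Adipoq in all but KO replicate 2. Cidec, which encodes a lipid droplet protein, had 1.37 and 0.282 in WT and 7.92 and 2.79 in KO pools, and Plin1, at 0.0535 and 0.0125 in WT and 0.347 and 0.119 in KO pools, was also above in both KO pools. The summed FPKM of 8 macrophage markers was 164 and 415 in WT pools against 207 and 202 in KO pools, so WT replicate 2 stood apart from the other pools. The part of that pool's macrophage RNA in the results below was not tested.

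None of the 10 genes passed the threshold of an adjusted p under 0.05 between KO and WT pools (limma on log2(FPKM + 0.5), adjusted by Benjamini-Hochberg over 15414 genes). The background was the same, with 0 of 15414 genes (0%) past it, and 974 genes at an unadjusted p under 0.05. Flt1 was the gene of the 10 with an unadjusted p under 0.05 and it was higher in the KO pools, where 3.29% of all genes tested were higher and 3.03% lower at that level. Its unadjusted p in limma was 0.0148, and 0.0617 without WT replicate 2 and 0.0854 without KO replicate 2, while Kdr reached 0.0340 without KO replicate 1 and Tie1 0.0352 without WT replicate 2. The KO pools exceeded both WT pools in 4 of the 10 genes, all of them receptors (Flt1, Kdr, Tie1 and Tek), against 19.7% of all genes tested. No member had both KO pools below both WT pools, against 18.1% of all genes. The log2 fold change was above 0 for 8 of the 10 genes, with a median of 0.088, and for 5 of the 10 with a median of 0.017 without KO replicate 2, or 8 of the 10 with a median of 0.17 without KO replicate 1. Of all genes, 51.4% had a positive value, with a median of 0.0071. A comparison of 2 pools with 2 cannot give an exact two-sided permutation p under 0.333, so the value in every pool is given for each gene.

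**Figure D1:**
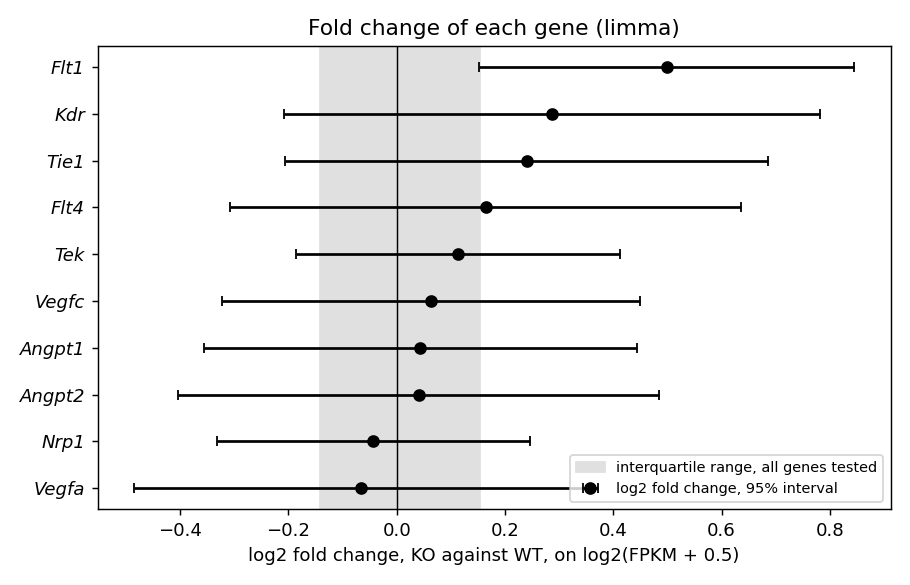
Log2 fold change of each gene between KO and WT pools on the log2(FPKM + 0.5) scale, with its 95% interval from limma, and the interquartile range of all genes tested in grey. The interval of Flt1, 0.15 to 0.85, lies above 0, and the intervals of the other 9 genes include 0.

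Flt1 and Kdr are minus-strand genes of chromosome 5 (GRCm38 positions throughout), Flt1 (ENSMUSG00000029648) at chr5:147561604-147726011 and Kdr (ENSMUSG00000062960) at chr5:75932827-75978458. As these receptors had the highest fold changes, the 250 bases upstream of their RefSeq start sites (GRCm38.p6) were searched on both strands for GGAAG, a core of binding sites of ETS factors, which are known regulators of endothelial genes, and for ACGTG or GCGTG, cores of hypoxia-inducible factor sites. The windows that hold a match are printed 5′ to 3′ on the strand of the gene with the match in capitals, which reads as the reverse complement where the match is on the opposite strand.
Flt1, GGAAG 128 bases upstream, chr5:147726122-147726151: gcccctccgggaGGAAGaagagggtaggtg
Flt1, GGAAG 71 bases upstream, chr5:147726065-147726094: cttgacgtcactGGAAGgaggtgccggggt
Flt1, GGAAG 52 bases upstream, chr5:147726046-147726075: ggtgccggggtaGGAAGtgggctggggaaa
Flt1, GCGTG on the opposite strand 184 bases upstream, chr5:147726178-147726207: ctagcgccaccgCACGCgcgctctggcccc
Kdr, GGAAG on the opposite strand 216 bases upstream, chr5:75978654-75978683: ggctacattttaCTTCCaccagaaaccgag
Kdr, GCGTG 131 bases upstream, chr5:75978569-75978598: gtgggggagtggGCGTGggaaaccgggaaa
Kdr, GCGTG 89 bases upstream, chr5:75978527-75978556: atccagtgggggGCGTGgccggacgcaggg
GGAAG occurred on either strand in 64.1% of the 32851 RefSeq promoter windows of the same length and ACGTG or GCGTG in 38.6%, so both are common. GGAAG had 6 matches in the window of Tie1, 3 in that of Nrp1 and 1 in those of Flt4 and of each of the 2 Vegfa starts. The other motif had 1 match in Nrp1 and 2 at the Vegfa start at chr17:46025163, which lies inside the gene. It had 0 at the Vegfa start at chr17:46032377. The bases after the start were found in a GENCODE M21 transcript of the gene for every window but those of chr17:46025163 and Vegfc. The windows of Tek and Vegfc held neither motif. Windows were matched by symbol for 8 of the 10 genes, all but Angpt1 and Angpt2. These matches describe letters and not binding.

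The VEGF receptors differed in how they varied between pools. Flt1 had an FPKM of 5.59 and 5.42 in WT pools against 7.33 and 8.71 in KO pools, from 1214 to 1909 reads per pool. Each KO pool was above each WT pool, and the exact Poisson 95% intervals of the reads did not overlap between the groups, with an upper bound of 5.92 in WT and a lower bound of 6.98 in KO. The mean was 5.51 ± 0.120 in WT pools and 8.02 ± 0.975 in KO pools (both SD, n = 2), a ratio of 1.46. The log2 fold change was 0.50 with a standard error (SE) of 0.13 and a limma adjusted p of 0.757, which ranked 301 of 15414 genes by p. It stayed between 0.38 and 0.62 with single pools left out, while its adjusted p was 0.445 to 0.992 over the alternative settings. GENCODE M21 annotates 2 protein-coding transcripts of Flt1, 1 of 30 exons with a coding sequence of 3999 nt and 1 of 13 exons with 2064 nt. A value per gene cannot tell these transcripts apart, so the part of the shorter one in the Flt1 values was not measured here.

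Kdr had an FPKM of 6.50 and 6.70 in WT pools against 6.86 and 9.70 in KO pools. The KO pools were above the WT pools, but KO replicate 1 was close to them, with overlapping counting intervals, and KO replicate 2 was the high one. The log2 fold change of Kdr was 0.29 (SE 0.19, limma adjusted p = 0.815), and its range was 0.051 (KO replicate 2 left out) to 0.52 (KO replicate 1 left out). The FPKM ratio of Flt1 to Kdr was 0.860 and 0.809 in WT pools against 1.07 and 0.897 in KO pools. The ratios did not overlap between the groups, with an exact two-sided permutation p of 0.333, the smallest that this design allows. This ratio was not among those planned, it draws on the Flt1 values above, and the share of gene pairs without overlap was not measured.

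Flt4 (ENSMUSG00000020357, chr11:49609263-49652739, plus strand) had an FPKM of 2.51 and 3.46 in WT pools against 3.28 and 3.46 in KO pools. WT replicate 1 was the low pool and the other 3 overlapped. The log2 fold change was 0.16 (SE 0.18, limma adjusted p = 0.881), and it ranged from -0.034 without WT replicate 1 to 0.36 without WT replicate 2. FLT4 is also carried by lymphatic endothelium, and 6 lymphatic markers summed to 1.86 and 2.33 in WT and 2.22 and 6.20 in KO pools. KO replicate 2 stood out through the chemokine Ccl21a, at 4.44 there and 0.155 to 1.30 in the other pools, while the transcription factor Prox1 was 0.561 to 0.771 over all pools and Pdpn, which encodes podoplanin, had 1 read in all. The part of lymphatic cells in the Flt4 values was not tested.

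Nrp1 (ENSMUSG00000025810, chr8:128358604-128503363, plus strand), which encodes a coreceptor for VEGFA and for class 3 semaphorins and is not restricted to endothelial cells, had the smallest standard error of the 10 genes. Its FPKM was 9.66 and 10.5 in WT pools against 9.77 and 9.76 in KO pools. The KO pools lay between the WT pools, with a log2 fold change of -0.043 (SE 0.11, 95% interval -0.33 to 0.25, limma adjusted p = 0.955).

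**Figure D2:**
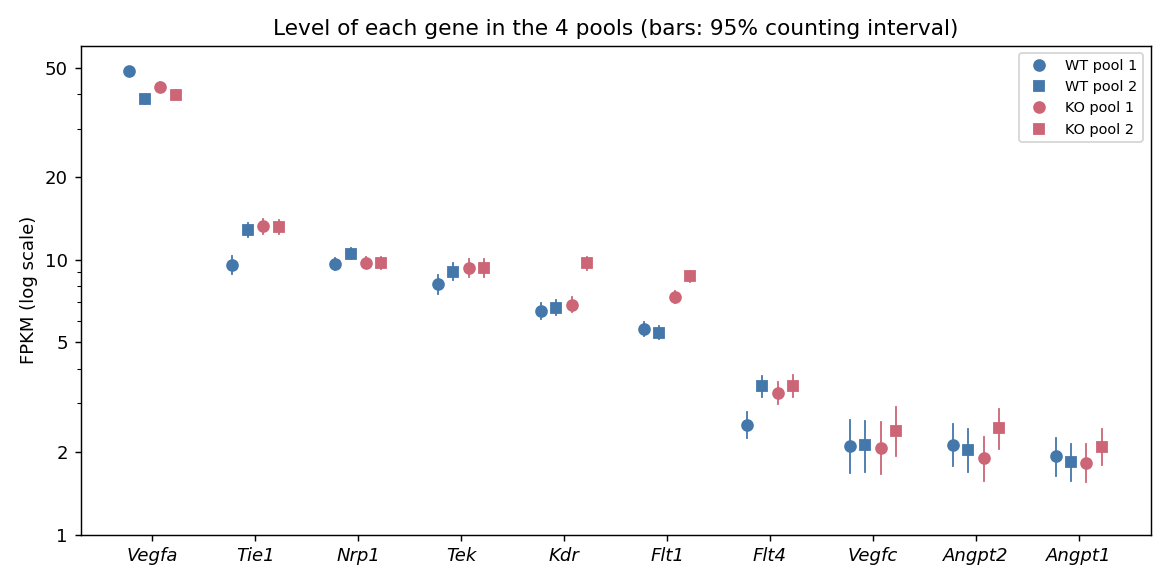
FPKM of each gene in the 2 WT and 2 KO pools on a log axis, ordered by mean level, with bars for the exact Poisson 95% interval of the reads, which covers counting error only. Vegfa is highest at 38.3 to 48.7, the receptors lie between 2.51 and 13.2, and Vegfc, Angpt2 and Angpt1 lie between 1.83 and 2.44.

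Vegfa (ENSMUSG00000023951, chr17:46016993-46032369, minus strand) was the highest of the 10 genes, with an FPKM of 48.7 and 38.3 in WT pools against 42.6 and 39.9 in KO pools. Both KO pools lay between the WT pools, which differed from each other by more than counting error (95% intervals of 47.0 to 50.3 and 36.9 to 39.7). The mean was 43.5 ± 7.35 in WT pools and 41.3 ± 1.96 in KO pools (both SD, n = 2). The log2 fold change was -0.066 (SE 0.16, 95% interval -0.49 to 0.35, limma adjusted p = 0.952), and became 0.11 when WT replicate 1 was left out and -0.24 when WT replicate 2 was, so its sign was set by the choice of WT pool. GENCODE M21 annotates 8 protein-coding transcripts of Vegfa, with coding sequences of 438 nt to 1176 nt, which the values per gene do not separate. Vegfa made up 50.3% and 41.5% of the summed FPKM of the 10 genes in WT pools against 43.4% and 39.5% in KO pools.

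Vegfc (ENSMUSG00000031520, chr8:54077606-54187096, plus strand), which encodes a ligand of FLT4, had an FPKM of 2.11 and 2.11 in WT pools against 2.07 and 2.39 in KO pools. The KO pools lay on either side of the WT pools, and with 83 to 95 reads per pool the counting intervals of all 4 pools overlapped. Its log2 fold change was 0.063 (SE 0.15, 95% interval -0.32 to 0.45, limma adjusted p = 0.948). The FPKM ratio of Vegfa to Flt1, a ligand and a receptor that binds it, was 8.70 and 7.06 in WT pools against 5.82 and 4.58 in KO pools, without overlap and with the smallest exact permutation p of 0.333. It also draws on the Flt1 values, and the share of gene pairs without overlap was not measured. The ratio of Vegfa to Kdr was 7.48 and 5.71 in WT pools against 6.22 and 4.11 in KO pools, which overlapped.

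The angiopoietins were the least abundant of the genes together with Vegfc. Angpt1 (ENSMUSG00000022309, chr15:42424723-42676977, minus strand) had an FPKM of 1.92 and 1.83 in WT pools against 1.83 and 2.08 in KO pools. Angpt2 (ENSMUSG00000031465, chr8:18690263-18741562, minus strand) had 2.12 and 2.03 in WT pools against 1.90 and 2.44 in KO pools. For both genes the groups overlapped, KO replicate 2 was the highest pool and KO replicate 1 the lowest. The log2 fold changes were 0.044 for Angpt1 (SE 0.15, 95% interval -0.36 to 0.44, limma adjusted p = 0.967) and 0.041 for Angpt2 (SE 0.17, 95% interval -0.40 to 0.49, limma adjusted p = 0.974). At 117 to 176 reads per pool the counting intervals of these genes were wider relative to their level than those of the receptors, and changes smaller than the limma intervals were not detectable with these pools.

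The FPKM ratio of Angpt2 to Angpt1, an antagonist and an activating ligand of TEK, was 1.10 and 1.11 in WT pools against 1.04 and 1.17 in KO pools. Angpt2 was above Angpt1 in all 4 pools, and the ratios of the KO pools lay on either side of those of WT. Angpt2 lies within Mcph1, a gene on the opposite strand, which had an FPKM of 1.23 to 1.57 over the pools, and the library protocol describes no step that marks strand. Whether reads of Mcph1 fall in the Angpt2 value was not tested.

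The TIE receptors were more abundant than their ligands. Tie1 (ENSMUSG00000033191, chr4:118471191-118490061, minus strand) had an FPKM of 9.57 and 12.9 in WT pools against 13.2 and 13.2 in KO pools. WT replicate 1 was the low pool and WT replicate 2 was close to the KO pools, with overlapping counting intervals. The log2 fold change was 0.24 (SE 0.17, limma adjusted p = 0.827). Leaving out WT replicate 1 gave 0.036 and leaving out WT replicate 2 gave 0.44.

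Tek (ENSMUSG00000006386, chr4:94739289-94874976, plus strand) had an FPKM of 8.16 and 9.05 in WT pools against 9.32 and 9.36 in KO pools. The KO pools were above both WT pools by a margin smaller than the counting intervals of WT replicate 2 and the KO pools, and WT replicate 1 was again the lowest pool. Its log2 fold change was 0.11 (SE 0.11, limma adjusted p = 0.868), and it ranged from 0.043 without WT replicate 1 to 0.18 without WT replicate 2. The FPKM ratio of Tie1 to Tek was 1.17 and 1.42 in WT pools against 1.42 and 1.41 in KO pools, with WT replicate 1 again apart.

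**Figure D3:**
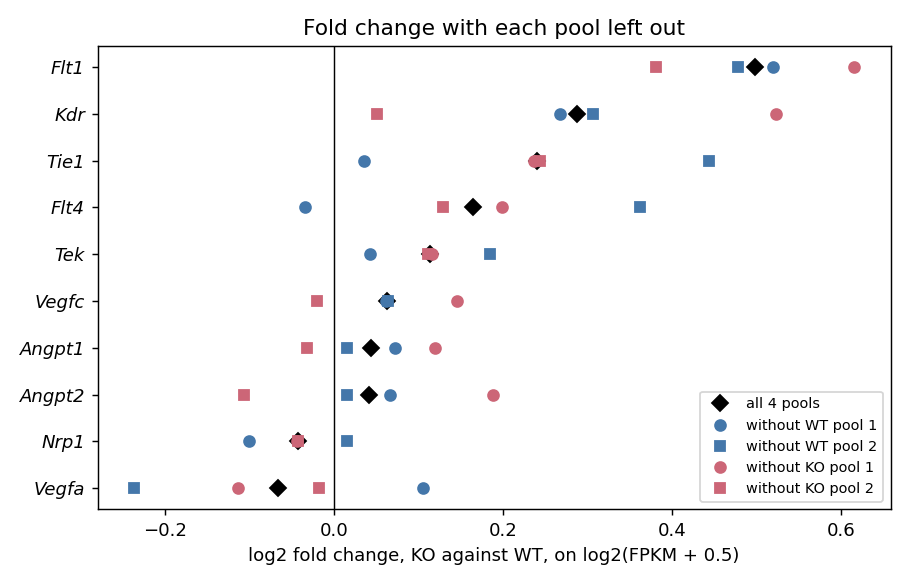
Log2 fold change of each gene with all 4 pools (diamond) and after the removal of single pools, on the log2(FPKM + 0.5) scale. Flt1 stays between 0.38 and 0.62, Tie1 is at 0.036 without WT pool 1, Kdr at 0.051 without KO pool 2, and 6 genes change sign.

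By mean FPKM, which is scaled by gene length, the order was Vegfa, Tie1, Nrp1, Tek, Kdr, Flt1, Flt4, Vegfc, Angpt2 and Angpt1. Vegfa was above Tie1, Nrp1 above Tek, Flt1 above Flt4 and Flt4 above Vegfc without overlap of their ranges over the 4 pools. The neighbours Tie1 and Nrp1, Tek and Kdr, Kdr and Flt1, Vegfc and Angpt2, and Angpt2 and Angpt1 overlapped. Summed over the members of a role, the VEGF receptors had an FPKM of 14.6 and 15.6 in WT pools against 17.5 and 21.9 in KO pools, and the TIE receptors 17.7 and 21.9 in WT and 22.6 and 22.5 in KO. The ligands had no such order, with 50.8 and 40.4 in WT and 44.7 and 42.3 in KO for the VEGF ligands and 4.05 and 3.86 in WT and 3.72 and 4.52 in KO for the angiopoietins.

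Since the receptors are made mainly by endothelial cells, their levels were set beside 17 pan-endothelial markers. The summed FPKM of these markers was 144 and 178 in WT pools against 160 and 202 in KO pools, so the groups overlapped and replicate 2 was the higher pool in each. Of the markers, 13 had a log2 fold change above 0 and 4 below, with a median of 0.14, and none passed the threshold. Pecam1, which encodes the vessel marker CD31, had an FPKM of 10.9 and 14.3 in WT pools against 13.8 and 18.7 in KO pools, and Cdh5, which encodes VE-cadherin, 9.30 and 13.4 in WT and 9.64 and 13.9 in KO. In whole kidney RNA, fewer cells of a type and less RNA per cell cannot be told apart.

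Relative to the mean log2 level of the markers, Flt1 was -0.26 and -0.55 in WT pools against 0.021 and -0.050 in KO pools. It was the one gene of the 10 with both KO pools on one side of both WT pools on this scale. The difference was 0.39, with an exact permutation p of 0.333. The share of all genes that do so on this scale was not measured. Without the markers taken off, 19.7% of all genes tested had both KO pools above and 18.1% both below. Kdr was -0.057 and -0.27 in WT pools against -0.068 and 0.099 in KO pools, and Tie1 0.47 and 0.63 in WT and 0.83 and 0.52 in KO, which overlapped. Tek differed by 0.0039 between the group means on this scale.

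**Figure D4:**
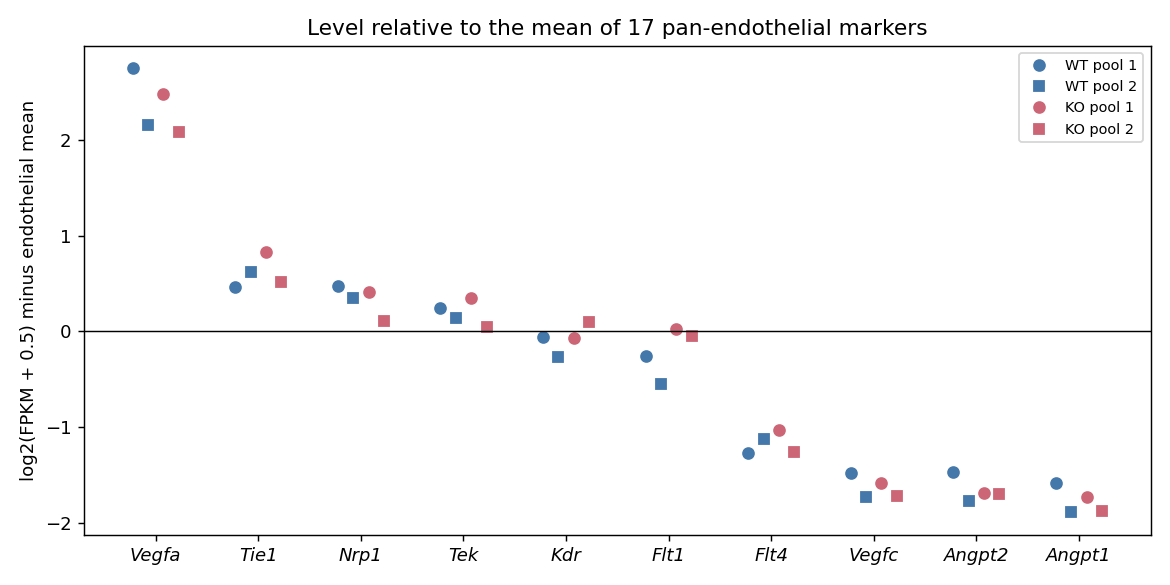
Level of each gene in the 4 pools relative to the mean log2(FPKM + 0.5) of 17 pan-endothelial markers, in log2 units. The groups overlap for 9 of the 10 genes, and for Flt1 the KO pools (0.021 and -0.050) lie above the WT pools (-0.26 and -0.55). The share of all genes without overlap on this scale was not measured.

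Podocytes are a source of VEGFA, and mural cells a source of ANGPT1. The summed FPKM of 8 podocyte markers was 68.0 and 65.0 in WT pools against 72.5 and 78.6 in KO pools. Podxl was the most abundant of these markers, at 34.8 and 30.7 in WT pools against 38.7 and 42.5 in KO pools. Of the 8 markers, 5 were above and 3 below 0, with a median log2 fold change of 0.065. Both KO pools lay above both WT pools for 2 of them and below for 2, where 19.7% and 18.1% of all genes tested did so. The summed FPKM of 10 pericyte and smooth muscle markers was 134 and 183 in WT pools against 184 and 229 in KO pools. Of the 9 mural markers tested, 6 were above and 3 below 0, with a median log2 fold change of 0.093, and most of the sum came from Acta2 and Ren1. Among pericyte markers, Pdgfrb had 16.7 and 27.6 in WT and 25.6 and 26.5 in KO, which overlapped (log2 fold change 0.27, and -0.083 without WT replicate 1), while Rgs5 had 8.21 and 10.04 in WT and 6.31 and 7.88 in KO, with both KO pools below. WT replicate 1 was the lowest pool for 5 of the 10 genes (Tie1, Tek, Kdr, Flt4 and Nrp1), and also for 11 of the 17 endothelial markers, 5 of the 10 mural markers and 1 of the 8 podocyte markers. It was the lowest also for 9 of the 12 semaphorins and plexins, 14 of the 25 VEGF signalling genes and 6 of the 13 TEK signalling genes described below. Further lists were 5 of the 12 VEGF-induced genes and 5 of 10 other ligands, coreceptors and modulators. Outside the vessels it was the lowest for 4 of 6 fibroblast, 3 of 8 macrophage, 3 of 5 neutrophil and 2 of 6 tubular injury markers. It was the lowest for 0 of the 8 hypoxia-inducible factor genes described below and 0 of the 8 proximal tubule markers. The same held for 0 of the 6 markers of the thick ascending limb, distal tubule and collecting duct. Of all genes tested, 22.2% were lowest in this pool, while the list counts include genes under the filter. The part of cell composition in the members' values was not tested.

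Other genes of the pathway gave no call either. Among 11 listed symbols of other VEGF and angiopoietin ligands, coreceptors and modulators, 8 were tested, 4 above and 4 below 0, with a median log2 fold change of 0.020 and none past the threshold. Vegfb, a ligand of FLT1, was the next most abundant ligand after Vegfa with an FPKM of 28.0 and 31.7 in WT pools against 26.3 and 31.3 in KO pools. Vegfd, a ligand of FLT4, had 4.42 and 5.89 in WT and 4.54 and 6.57 in KO pools. Pgf, a ligand of FLT1, and Angpt4 were under the filter on low values, with an FPKM of 0.288 to 0.488 and 0.237 to 0.538. The highest fold change of this list was 0.37 for Itga5, an integrin subunit, and the lowest -0.16 for Svep1, which encodes an extracellular TIE1 ligand, and both changed sign when a single pool was left out.

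Of 25 listed VEGF receptor signalling proteins, 22 were tested, 16 above and 6 below 0, with a median of 0.062 and none past the threshold. The KO pools lay above both WT pools for 7 of the 22 and below for 2, where 19.7% and 18.1% of all genes tested did so and 51.4% were above 0. Nos3, which encodes the endothelial nitric oxide synthase, had the highest fold change, 0.61 (SE 0.21, limma adjusted p = 0.785), which ranged from 0.41 to 0.81 with single pools left out. Its FPKM was 1.88 and 2.63 in WT pools against 3.26 and 4.13 in KO pools, without overlap. Nck1, an adaptor that binds phosphorylated receptors, had the lowest, -0.48 (SE 0.12, limma adjusted p = 0.742), with 4.77 and 5.13 in WT and 3.43 and 3.39 in KO pools. Plcg1, the phospholipase that KDR recruits, had 9.45 and 7.90 in WT and 11.6 and 10.4 in KO pools.

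All 13 listed TEK signalling genes were tested, with 7 above and 6 below 0, a median of 0.000735 and none past the threshold. The highest was Foxo1, a transcription factor that TEK signalling restrains and that drives Angpt2, with a log2 fold change of 0.31 and an FPKM of 6.65 and 5.57 in WT and 8.42 and 6.99 in KO pools, and the fold change ranged from 0.19 to 0.44 with single pools left out. Of 12 class 3 semaphorins and plexins, the other ligands and partners of neuropilins, 8 were tested with a median of 0.0055, from Plxna1 at -0.058 to Sema3g, an endothelial semaphorin, at 0.31, which ranged from 0.18 (KO replicate 2 left out) to 0.44 (KO replicate 1 left out).

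The 8 genes of the hypoxia-inducible factor pathway, which controls Vegfa, had a median of -0.020 with 3 above and 5 below 0. Epas1, which encodes HIF-2α, had an FPKM of 33.1 and 29.3 in WT pools against 36.3 and 38.0 in KO pools. Egln3, a prolyl hydroxylase that is itself induced by hypoxia, had the highest fold change, 0.94 (SE 0.39, limma adjusted p = 0.786), with 6.54 and 4.30 in WT and 15.2 and 7.43 in KO pools, and Vhl, whose product marks HIF for degradation, the lowest at -0.14. The fold change of Egln3 was 0.45 when KO replicate 1, its high pool, was left out and 1.43 when the other KO pool was. None passed the threshold.

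Among 12 endothelial genes known to be induced by VEGF, 11 were tested, 6 above and 5 below 0, with a median of 0.0084 and none past the threshold. The KO pools lay above both WT pools for 1 of the 11 (Plvap) and below for 3, Aplnr among them. Of all genes tested, 19.7% and 18.1% did so. Plvap, which encodes the diaphragm protein of fenestrated capillaries, had an FPKM of 103 and 110 in WT pools against 161 and 152 in KO pools, without overlap and with a log2 fold change of 0.55 (SE 0.14, limma adjusted p = 0.742). Aplnr, which encodes the ELA receptor APJ, had the lowest, -1.24 (SE 0.54, limma adjusted p = 0.797), with 1.48 and 4.90 in WT and 1.23 and 0.616 in KO pools. WT replicate 2 was the high pool, and the log2 fold change of Aplnr was -0.51 without it and -1.96 without WT replicate 1.

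**Figure D5:**
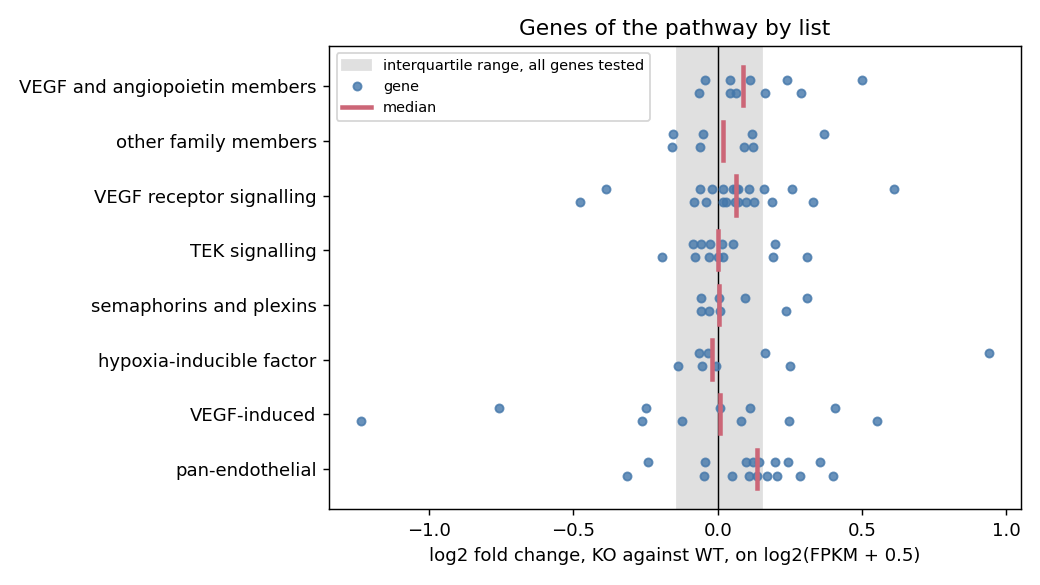
Log2 fold change of each tested gene (points) of the 10 members, the 6 pathway lists and the pan-endothelial markers, with the median of the list (red line) and the interquartile range of all genes tested in grey, on the log2(FPKM + 0.5) scale. The medians run from -0.020 for the hypoxia-inducible factor genes to 0.14 for the pan-endothelial markers. The grey range is that of single genes and no measure of the spread of a list median. The markers of other cell types are not drawn.

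The genes whose pattern over the 4 pools was most like that of a member were sought among those with a mean FPKM of at least 5. Likeness was the largest gap in log2(FPKM + 0.5) between the patterns after the mean of each gene was taken off. For Vegfa these were Lrpap1, Ipp and Tmlhe (gaps of 0.027 to 0.033), for Kdr Crcp, Bst1 and Tmc6 (0.016 to 0.033), for Angpt1 Mecr, Polr3a and BC017158 (0.0073 to 0.016), and for Tie1 Nap1l1 and Grk5 (0.037 and 0.050). Over 4 pools such likeness was common for Angpt1, with 943 of 7869 genes within 0.1. It was less common for Vegfa (158 of 7868), Tie1 (49 of 7868) and Kdr (34 of 7868).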

How the data were processed

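RNA-sequencing of 4 kidney libraries was used. The authors deposited FPKM per gene for each library. The submitters' processing notes name HISAT2 2.0.5 and the builds mm10 and GRCm38.p6; the counting tool is not given in the sources used here. FPKM times gene length gave whole reads for 100% of nonzero values within 0.01 of a read, and these gave depth, Poisson intervals (95%, counting error only) and voom weights. The members' positions were identical in GENCODE M21. Log2(FPKM + 0.5) was compared with limma 3.58.1 (R 4.3.3, eBayes with trend, two-sided) for the 15414 genes that averaged 0.5 FPKM or more. P-values were adjusted by Benjamini-Hochberg with a threshold of 0.05. This is a test that suits FPKM, which are not counts. Fold changes on this scale understate those of low genes. Tables were made in Python 3.11.15 (pandas 2.3.3, numpy 2.4.6, scipy 1.17.1).

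The members and lists were chosen with earlier results of these data known. Besides the members, the genes named were the targeted gene, the highest and lowest fold change of each pathway list, genes needed to describe a member, and the 3 genes most like Vegfa, Kdr, Angpt1 and Tie1. A few genes that this rule names are not reported here. Markers of the fibroblast, neutrophil, T cell and tubular injury lists were computed and are given in the closing section. Alternatives tried were a pseudocount of 0.1 or of 1, a filter of 1 or none, quantile normalization, a replicate block, voom weights, an unadjusted p, and each pool left out, where limma takes the lone pool to vary like the other group. The same alternatives for named genes other than the members were added after the data were seen.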

Additional observations from a re-analysis of the deposited data

How the results depend on the processing

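The count of differentially expressed genes was 0 under every alternative that adjusts p, and 974 at an unadjusted p under 0.05. For the 10 genes, none of 70 values changed sign under the alternatives that keep all pools, and none passed the threshold under any alternative (adjusted p 0.445 to 0.998, limma with Benjamini-Hochberg adjustment). The pools share only replicate numbers, as the deviations of same-numbered pools had a correlation of -0.0017 across genes; with the replicate block 0 genes passed and 932 had an unadjusted p under 0.05.

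With a pool left out, 6 of 40 values changed sign. The lowest and highest log2 fold changes were -0.24 and 0.11 for Vegfa, -0.020 and 0.15 for Vegfc, -0.034 and 0.36 for Flt4, -0.10 and 0.015 for Nrp1, -0.032 and 0.12 for Angpt1, and -0.11 and 0.19 for Angpt2, and, without a change of sign, 0.051 and 0.52 for Kdr, 0.036 and 0.44 for Tie1, 0.043 and 0.18 for Tek and 0.38 and 0.62 for Flt1. Without KO replicate 2, 5 of the 10 genes were above 0. With quantile normalization the median of the VEGF receptor signalling genes was -0.0028 and that of the hypoxia-inducible factor genes -0.053. It was -0.016 for the TEK signalling genes, -0.0076 for the semaphorins and plexins and -0.028 for the other ligands, coreceptors and modulators. The median of the 10 genes was 0.098. Of all genes tested, 49.4% were above 0 under this setting, with a median of -0.0025, and the cause was not tested. The range of the median with single pools left out was 0.017 to 0.17 for the 10 genes, -0.074 to 0.079 for the TEK signalling genes, -0.068 to 0.19 for the semaphorins and plexins, -0.030 to 0.043 for the hypoxia-inducible factor genes, -0.30 to 0.32 for the VEGF-induced genes, 0.0083 to 0.12 for the VEGF receptor signalling genes, -0.14 to 0.21 for the other ligands, coreceptors and modulators, 0.036 to 0.30 for the pan-endothelial markers, -0.054 to 0.099 for the podocyte markers and -0.074 to 0.26 for the mural markers. Of 28 other named genes run with a pool left out, 9 changed sign, with ranges of -0.21 to 0.10 for Plxna1, -0.024 to 0.76 for Itga5, -0.51 to 0.20 for Svep1, -0.18 to 0.073 for Vegfb, -0.15 to 0.34 for Vegfd, -0.20 to 0.30 for Cdh5, -0.083 to 0.62 for Pdgfrb, -0.18 to 1.01 for Acta2 and -0.13 to 0.13 for Prox1, which was also 0.019 with quantile normalization and 0.0051 with voom weights against -0.0042. Among the 10 genes, Vegfc, Angpt1 and Angpt2, with 83 to 176 reads per pool, had the widest counting intervals relative to their level. The largest limma standard error was that of Kdr, at 0.19.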

Other observations

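Markers of cells other than those described with the members were also measured. The summed FPKM of 6 fibroblast markers was 124 and 250 in WT against 144 and 161 in KO pools, that of 6 neutrophil markers 11.3 and 22.2 in WT and 11.7 and 29.0 in KO, and that of 6 T cell markers 0.967 and 2.25 in WT and 1.11 and 0.687 in KO. Of 6 tubular injury markers, 2 had a log2 fold change above 0 and 4 below. Their median was -0.21, and -0.43 to 0.012 with single pools left out. Lcn2, a gene of injured tubules, had the highest fold change, 1.21 (133 and 95.2 in WT, 249 and 273 in KO pools). Vcam1, an adhesion molecule also found on endothelium, had the lowest, -1.91 (14.6 and 31.0 in WT, 10.5 and 2.59 in KO pools). The value of Vcam1 ranged from -0.99 (KO replicate 2 left out) to -2.82 (KO replicate 1 left out). Neither gene passed the threshold.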
